A study of Mus musculus with 14 samples.

Results

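The 10 genes described here mark the path by which oligodendrocytes, the myelinating cells of the brain, form from their precursors: Pdgfra, Cspg4, Olig1, Olig2, Nkx2-2, Sox10, Gpr17, Bcas1, Enpp6 and Myrf. They were chosen by name, not by measured value, from the 23375 genes of the table, and all 10 were present and passed the filter on low values. Expression was measured by sequencing poly(A) RNA of mouse brain in 14 libraries, 2 in each of 7 groups. Levels are FPKM, which divides fragments by transcript length and by the size of the library, so genes can be compared per length.

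Adult KO3 brains carried deletions of the H19-DMR, the IG-DMR and the Rasgrf1-DMR, and were set against wild-type adult set 2. In adult KO2 brains the H19-DMR and the IG-DMR alone were deleted, and these were set against wild-type adult set 1. E19.5 KO7 brains, from late embryos, carried deletions of 7 DMRs, at Gnas, Grb10, Igf2r, Kcnq1, Nespas, Peg3 and Snrpn. E19.5 KO2 brains carried the same H19-DMR and IG-DMR deletions as adult KO2, and both E19.5 knockouts were set against the same E19.5 wild type. A DMR is a differentially methylated region, an element that controls imprinted genes and is not itself a transcript, so no value here reads a deletion directly. The knockout mice came from haploid embryonic stem cells with modified DMRs. From knowledge of the study, and not from its labels, KO2 and KO3 mice have 2 maternal genomes and no paternal one, and KO7 mice the reverse, so deletions and parental origin cannot be told apart. The labels name no strain, adult age or brain region.

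Oligodendrocyte precursors carry the receptor Pdgfra, which binds the mitogen PDGF-A, and the surface proteoglycan Cspg4, also called NG2. The transcription factors Olig1, Olig2, Nkx2-2 and Sox10 specify the lineage and stay on in part after the precursor stage. Committed precursors and newly forming oligodendrocytes switch on the receptor Gpr17, then Bcas1 and Enpp6, and Myrf drives the myelin genes. In mouse brain most myelin forms after birth, so E19.5 lies before the main period of myelination. Pdgfra is also made by meningeal fibroblasts, Cspg4 by pericytes and Sox10 by Schwann cells, which are other cells that a brain sample could hold.

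Of the 10 genes, 5 have a promoter window in the RefSeq table of build GRCm38.p6 (Pdgfra, Cspg4, Nkx2-2, Olig2 and Enpp6), each reaching from 250 bases before to 50 bases after the gene's start. The windows were searched on both strands for the SOX core motif ACAATG, whose reverse complement is CATTGT, because Sox10 is a SOX factor. The motif occurred in 2 of the 5, those of Enpp6 and Olig2, and in 12.6% of all 32851 windows. These 2 are shown because they are the only ones of the 5 with the motif. The capitals mark the motif, and the letters run 5′ to 3′ over the 250 bases before the start, both on the plus strand. In Enpp6 it begins 219 bases before the start on the gene's own strand, in chr8:46986637-46986886. In Olig2 it begins 68 bases before the start on the opposite strand, in chr16:91225300-91225549. A match is a description of the letters and was not tested as a binding site.
Enpp6: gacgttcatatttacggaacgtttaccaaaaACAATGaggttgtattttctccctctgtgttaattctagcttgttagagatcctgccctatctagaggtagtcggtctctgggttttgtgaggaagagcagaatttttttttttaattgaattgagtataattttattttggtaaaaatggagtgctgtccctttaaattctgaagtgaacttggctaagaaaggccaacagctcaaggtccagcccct
Olig2: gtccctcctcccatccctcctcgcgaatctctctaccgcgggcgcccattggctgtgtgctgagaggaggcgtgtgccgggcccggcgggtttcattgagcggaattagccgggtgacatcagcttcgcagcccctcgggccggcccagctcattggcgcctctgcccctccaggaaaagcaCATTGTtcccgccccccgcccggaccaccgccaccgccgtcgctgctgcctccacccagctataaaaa

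The deposited values carry no read totals, so depth is unknown. Each library reached 1 FPKM in 12701 to 13398 genes, and Pearson's r across genes was 0.964 to 0.983 between the libraries of a group. The 7 neuron markers summed to 2159 to 3646 FPKM per library, in brain samples of every group. The 4 libraries of adult KO3 and wild-type set 2 were handled differently before deposit: 9994 genes (42.8%) are listed at 0 in all 4, while the lowest value of any of the 10 lineage genes there was 1.32 FPKM. The libraries of adult KO3 were the least alike of any group (r = 0.964). E19.5 KO2 replicate 1 had 1.5 FPKM of Xist, against 84 in replicate 2. Xist had 106 to 117 FPKM in E19.5 wild type and 0.0159 to 0.0402 FPKM in E19.5 KO7. The 4 Y-linked genes Ddx3y, Eif2s3y, Kdm5d and Uty summed to 38.1 to 42.5 FPKM in E19.5 KO7. They summed to at most 0.0274 FPKM in E19.5 KO2 and to 0 in E19.5 wild type. Genotype and sex pattern therefore cannot be told apart where KO7 is compared with either. E19.5 KO2 replicate 1 also differs from both E19.5 wild-type libraries in Xist. The part of this in the comparison of KO2 with wild type was not tested. Whether the replicates are separate animals is not stated in the labels, so the p-values speak only of spread between libraries, part or all of which may be technical.

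**Figure D1:**
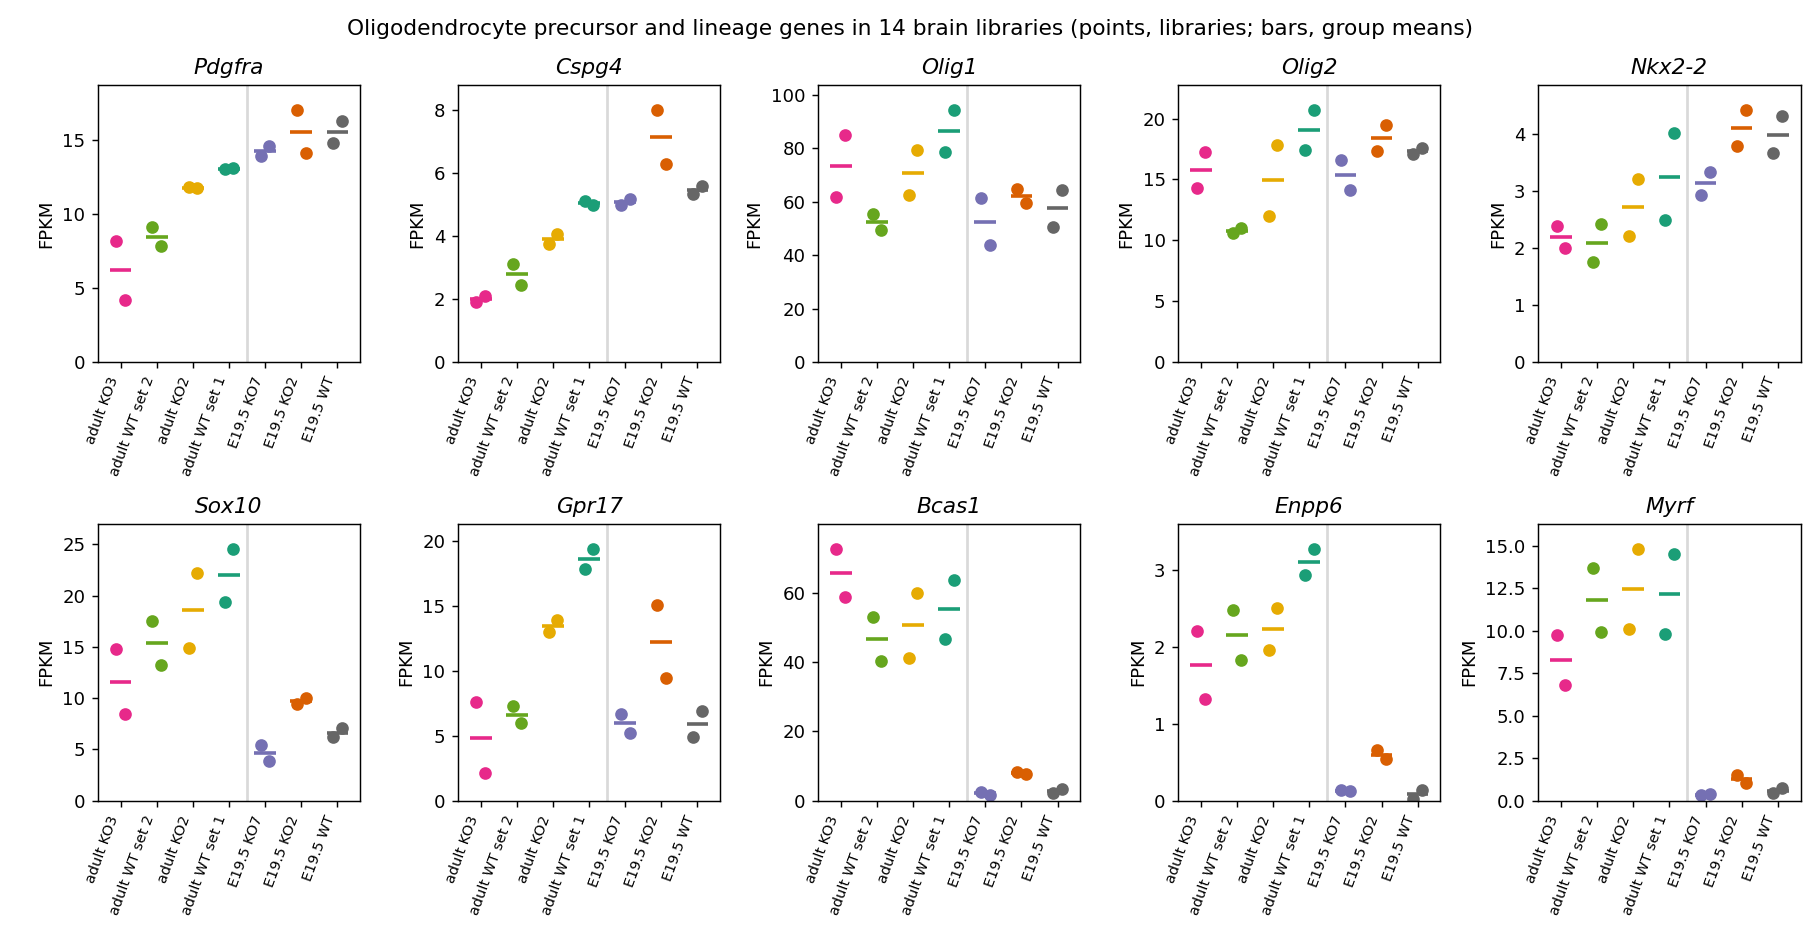
FPKM of the 10 genes in each of the 14 libraries (points) with the mean of each group (bars); adult groups stand left of the grey line and E19.5 groups right of it. Myrf, Bcas1 and Enpp6 are higher in every adult library than in every E19.5 library, while Pdgfra and Cspg4 lie lowest in the adult KO3 and adult wild-type set 2 libraries.

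In wild-type brain the late genes of the lineage were much higher in adults than at E19.5, and the precursor markers did not pass the test. By limma on log2(FPKM + 1) over all 14322 tested genes, with Benjamini-Hochberg adjusted p under 0.05, 6 of the 10 genes were higher in adult wild-type set 1 than in E19.5 wild type and 0 were lower. Of all tested genes 56% passed in this comparison, 21.9% higher and 34.1% lower. At an unadjusted p under 0.05, 6 of the 10 and 61% of all tested genes passed. The median log2 change was 1.05 over the 10 genes and -0.15 over all tested genes. In bulk tissue, more cells of a type and more RNA per cell cannot be told apart.

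Bcas1, made in early myelinating oligodendrocytes, had 46.7 and 63.7 FPKM in adult wild-type set 1, against 2.24 and 3.28 FPKM in E19.5 wild type. Its log2 change was 3.90 ± 0.23 (SE; adjusted p = 2.543e-07, limma), a ratio of means of 20.01. Both adult libraries lie far above both E19.5 libraries. Myrf, the transcription factor that myelin genes require, had 9.80 and 14.5 FPKM in adult set 1, against 0.438 and 0.754 FPKM at E19.5 (log2 change 3.03 ± 0.25, adjusted p = 2.268e-06, limma). Enpp6, a choline-specific glycerophosphodiesterase of newly formed oligodendrocytes, had 2.93 and 3.27 FPKM in adult set 1, against 0.0245 and 0.139 FPKM at E19.5. Its log2 change was 1.92 ± 0.17 (adjusted p = 4.256e-06, limma), and since the pseudocount of 1 understates changes of low genes, its ratio of means was far larger, at 37.9. For these 3 genes the groups do not overlap (nor did they in 84.1% of all tested genes), and the calls held under every alternative run that tested them.

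Sox10, which acts through precursor and mature stages, had 19.4 and 24.6 FPKM in adult set 1, against 6.18 and 7.12 FPKM at E19.5 (log2 change 1.58 ± 0.26, adjusted p = 0.000346, limma). Gpr17, the receptor of committed precursors, had 17.9 and 19.4 FPKM in adult set 1, against 4.93 and 6.92 FPKM at E19.5 (log2 change 1.52 ± 0.37, adjusted p = 0.00467, limma). Olig1 had 78.7 and 94.3 FPKM in adult set 1, against 50.5 and 64.5 FPKM at E19.5, and passed more narrowly (log2 change 0.59 ± 0.21, adjusted p = 0.0311, limma). The libraries of the stages do not overlap for any of the 3. With both adult wild-type sets taken as 1 group, Gpr17 (log2 change 0.83, adjusted p = 0.144) and Olig1 (0.23, adjusted p = 0.452) no longer passed. Olig1 also missed the threshold without E19.5 wild-type replicate 1 (adjusted p = 0.211), without adult set 1 replicate 2 (adjusted p = 0.171) and with no filter on low values (adjusted p = 0.0501).

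The other 4 genes did not pass between the stages. Pdgfra had 13.1 FPKM in both libraries of adult set 1, against 14.9 and 16.3 FPKM at E19.5. Its log2 change of -0.23 had a 95% interval from -0.70 to 0.23. Cspg4 had 5.11 and 4.99 FPKM in adult set 1, against 5.35 and 5.60 FPKM at E19.5 (interval -0.40 to 0.21). Olig2 had 17.4 and 20.7 FPKM in adult set 1, against 17.1 and 17.6 FPKM at E19.5 (interval -0.26 to 0.50), and the libraries overlap. Nkx2-2, a homeodomain factor of precursors, had 2.48 and 4.01 FPKM in adult set 1, against 3.66 and 4.31 FPKM at E19.5 (interval -0.69 to 0.19). For Pdgfra and Cspg4 both adult set 1 libraries lay below both E19.5 libraries. With both adult wild-type sets as 1 group the log2 changes were -0.52 for Pdgfra (adjusted p = 0.0734), -0.44 for Cspg4 (0.0949), -0.47 for Nkx2-2 (0.0710) and -0.26 for Olig2 (0.382, limma), larger in size than with set 1 alone, turned below 0 for Olig2, and not past the threshold.

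The same stage comparison in KO2 brains gave 4 genes higher in adults and 1 lower, where 49.3% of all tested genes passed (20.7% higher and 28.6% lower). Bcas1 had 41.1 and 60.1 FPKM in adult KO2, against 8.31 and 7.84 FPKM in E19.5 KO2 (log2 change 2.48 ± 0.23, adjusted p = 8.082e-06, limma). Myrf had 10.1 and 14.8 FPKM in adult KO2, against 1.52 and 1.03 FPKM in E19.5 KO2 (log2 change 2.55 ± 0.25, adjusted p = 1.054e-05, limma). Enpp6 had 1.95 and 2.50 FPKM in adult KO2, against 0.659 and 0.540 FPKM in E19.5 KO2 (log2 change 1.01 ± 0.17, adjusted p = 0.000573, limma). All 3 late genes were again well above their E19.5 levels.

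Sox10 had 14.9 and 22.2 FPKM in adult KO2, against 9.38 and 9.996 FPKM in E19.5 KO2 (log2 change 0.85 ± 0.26, adjusted p = 0.0183, limma). This call was lost without E19.5 KO2 replicate 1 (adjusted p = 0.0805), E19.5 KO2 replicate 2 (0.0613) or adult KO2 replicate 2 (0.154). Cspg4 was the gene that fell, with 3.74 and 4.05 FPKM in adult KO2, against 8.01 and 6.28 FPKM in E19.5 KO2 (log2 change -0.73 ± 0.14, adjusted p = 0.00128, limma). Gpr17 had 12.999 and 13.9 FPKM in adult KO2, against 15.1 and 9.44 FPKM in E19.5 KO2 (log2 change 0.16 ± 0.37, adjusted p = 0.753, limma). The E19.5 KO2 libraries lie on either side of the adult ones for Gpr17. The other 4 genes did not pass: Pdgfra (log2 change -0.37), Nkx2-2 (-0.47), Olig2 (-0.31) and Olig1 (0.18). In 7 of the 10 genes the libraries did not overlap, beside 81% of all tested genes, and at an unadjusted p under 0.05, 6 of the 10 passed, beside 55.7%.

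**Figure D2:**
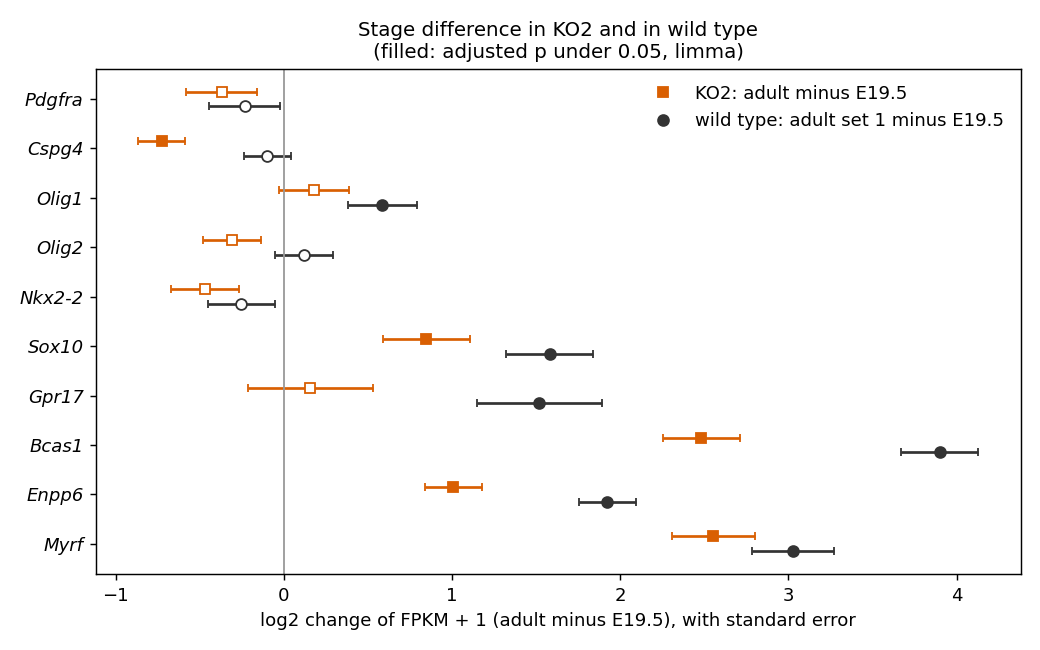
Difference between adult and E19.5 brain for the 10 genes, as log2 change of FPKM + 1 with its standard error, in KO2 (orange squares) and in wild type (dark circles, adult set 1); filled symbols passed an adjusted p of 0.05. The wild-type point lies to the right of the KO2 point for all 10 genes, farthest for Bcas1 (3.90 in wild type and 2.48 in KO2).

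Whether the KO2 difference itself depended on stage was tested as an interaction, the KO2 effect in adults minus the KO2 effect at E19.5. All 10 values were below 0, and 0 of the 10 passed (limma), where 0.0628% of all tested genes did (0.0349% higher and 0.0279% lower). At an unadjusted p under 0.05, 4 of the 10 genes passed, against 14.8% of all tested genes. These 4 were Bcas1 (-1.42 ± 0.32, 95% interval -2.13 to -0.70, adjusted p = 0.109, limma), Gpr17 (-1.36 ± 0.53, adjusted p = 0.272), Enpp6 (-0.92 ± 0.24, adjusted p = 0.142) and Cspg4 (-0.63 ± 0.20, adjusted p = 0.204). Adult KO3 is not part of this comparison. Leaving out either of its libraries kept the log2 changes at -1.42 for Bcas1 and -1.36 for Gpr17, and changed only the shared spread. With both adult wild-type sets as 1 group they were -1.3 for Bcas1 (adjusted p = 0.375, limma) and -0.68 for Gpr17 (adjusted p = 0.918, limma). These comparisons share libraries: the E19.5 wild type serves both E19.5 knockouts, and adult set 1 serves adult KO2, the stage comparison and the comparison of sets.

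At E19.5 the KO2 brains had more Bcas1 than wild type, and most of the later lineage genes had higher values that did not pass. Bcas1 had 8.31 and 7.84 FPKM in E19.5 KO2, against 2.24 and 3.28 FPKM in E19.5 wild type. Both KO2 libraries were above both wild-type libraries (log2 change 1.29 ± 0.23, adjusted p = 0.0254, limma, and a ratio of means of 2.93). It was the 1 gene of the 10 that passed, where 1.28% of all tested genes did (0.88% higher and 0.398% lower). The call was lost when any 1 of the 4 E19.5 KO2 and wild-type libraries was left out (adjusted p from 0.0532 without wild-type replicate 2 to 0.280 without wild-type replicate 1), while the log2 change stayed between 1.084 and 1.49. Without KO2 replicate 1 it was 1.25 (adjusted p = 0.173), and without KO2 replicate 2 it was 1.32 (adjusted p = 0.126). Without adult KO3 replicate 2, set 2 replicate 2 and E19.5 KO2 replicate 1 together it was 1.25. These 3, chosen after seeing the data, are called the libraries that stand apart, with no rule for the choice given here. The r between the set 2 libraries was 0.982, so it does not set replicate 2 apart.

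Among the genes next to Bcas1 in the lineage, Gpr17 had 15.1 and 9.44 FPKM in E19.5 KO2, against 4.93 and 6.92 FPKM in E19.5 wild type (log2 change 0.92 ± 0.37, adjusted p = 0.253, limma). Enpp6 had 0.659 and 0.540 FPKM in KO2, against 0.0245 and 0.139 FPKM in wild type (log2 change 0.56 ± 0.17, adjusted p = 0.142, limma). Its ratio of means, 7.33, rests on levels below 1 FPKM. Myrf had 1.52 and 1.03 FPKM in KO2, against 0.438 and 0.754 FPKM in wild type (log2 change 0.51 ± 0.25, adjusted p = 0.338, limma). Sox10 had 9.38 and 9.996 FPKM in KO2, against 6.18 and 7.12 FPKM in wild type (log2 change 0.48 ± 0.26, adjusted p = 0.383, limma). In each of these genes both KO2 libraries were above both wild-type libraries, and none passed.

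Of the precursor markers, Cspg4 had 8.01 and 6.28 FPKM in E19.5 KO2, against 5.35 and 5.60 FPKM in wild type (log2 change 0.32 ± 0.14, adjusted p = 0.287, limma). Pdgfra had 17.0 and 14.1 FPKM in KO2, against 14.9 and 16.3 FPKM in wild type, with a 95% interval of the log2 change from -0.47 to 0.46. The intervals were -0.33 to 0.57 for Olig1, -0.30 to 0.46 for Olig2 and -0.41 to 0.47 for Nkx2-2, and in these 4 genes the libraries overlap. In all, 6 of the 10 genes had no overlap between the groups, beside 57.2% of all tested genes. At an unadjusted p under 0.05, 4 of the 10 passed, beside 16.1% of all tested genes. The median log2 change was 0.40 over the 10 genes and -0.01 over all tested genes.

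**Figure D3:**
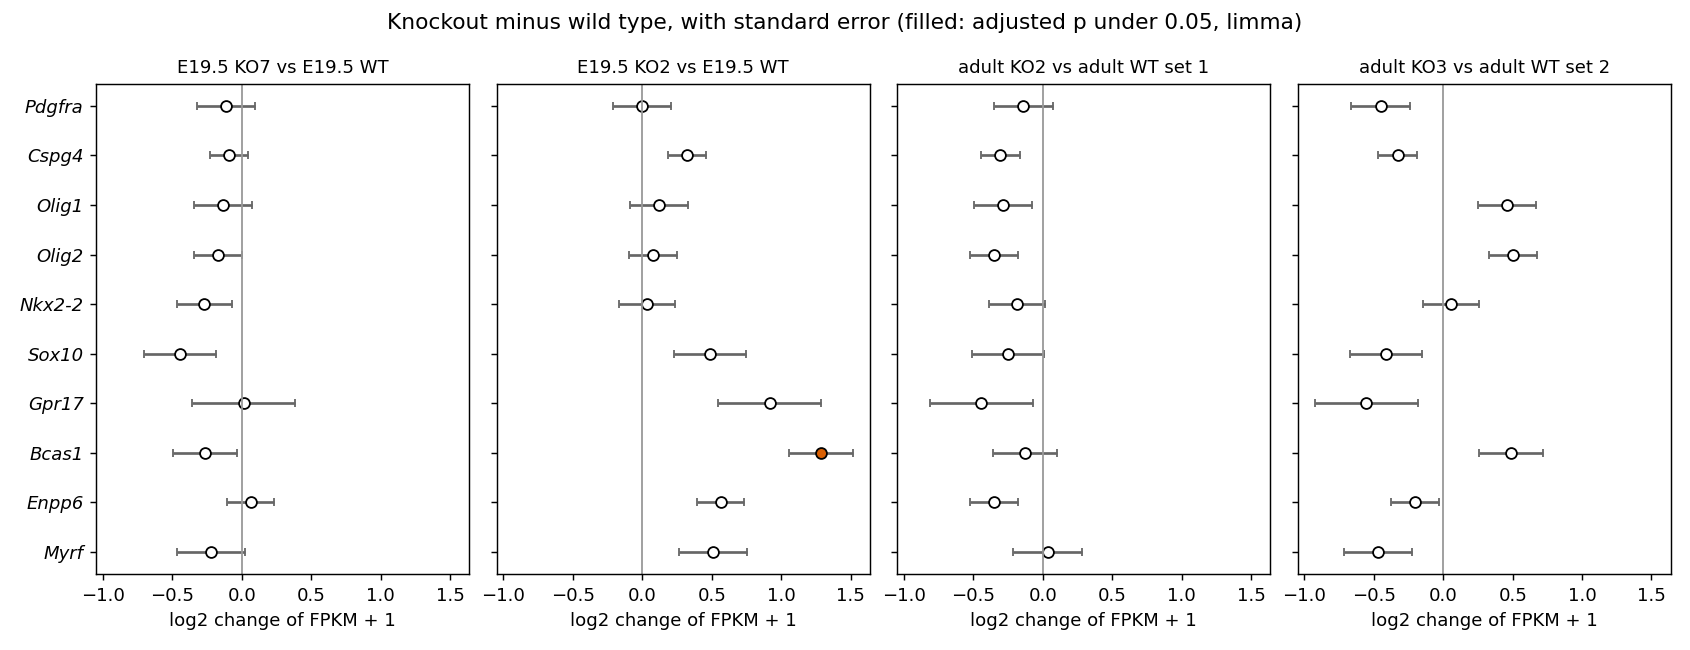
Knockout minus wild type for the 10 genes in 4 comparisons, as log2 change of FPKM + 1 with its standard error; filled points passed an adjusted p of 0.05 (limma). Bcas1 in E19.5 KO2 is the one filled point, at 1.29.

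In E19.5 KO7 brains 0 of the 10 genes passed against wild type (limma), and 0 had an unadjusted p under 0.05, where 4.45% of all tested genes passed (3.02% higher and 1.43% lower) and 21.1% had such an unadjusted p. The log2 changes lay between -0.44 for Sox10 and 0.06 for Enpp6, with a median of -0.15, against 0.01 over all tested genes. Sox10 had 5.45 and 3.89 FPKM in KO7, against 6.18 and 7.12 FPKM in wild type (adjusted p = 0.351, limma, 95% interval -1.01 to 0.12). Bcas1 had 2.48 and 1.75 FPKM in KO7, against 2.24 and 3.28 FPKM in wild type, and the libraries overlap (95% interval -0.77 to 0.24). Pdgfra had 13.9 and 14.6 FPKM in KO7, against 14.9 and 16.3 FPKM in wild type (95% interval -0.58 to 0.35). Cspg4 had 4.996 and 5.17 FPKM in KO7, against 5.35 and 5.60 FPKM in wild type (95% interval -0.40 to 0.21). Both precursor markers lay slightly below wild type without passing. Olig2 (log2 change -0.17), Nkx2-2 (-0.27), Myrf (-0.22), Olig1 (-0.14) and Gpr17 (0.01) did not pass either. In 6 of the 10 genes the libraries did not overlap, beside 60.3% of all tested genes.

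Fibroblast markers, which bear on Pdgfra, summed to 196 to 226 FPKM in E19.5 KO7 and to 70.7 to 102 FPKM in E19.5 wild type, and 7 of the 9 passed as higher, with the smallest p for Lum (log2 change 1.58 ± 0.20, adjusted p = 0.00301, limma). Leaving out 1 library gave 1 to 9 of them. Pericyte markers, which bear on Cspg4, summed to 105.5 to 121 FPKM in KO7 and to 55.1 to 66.8 FPKM in wild type, and 4 of the 8 passed as higher (0 to 5 leaving out 1 library). Schwann cell markers, which bear on Sox10, summed to at most 8.51 FPKM in any library, and only Cdh19 of the 7 reached the filter. The part that these cells play in the levels of Pdgfra, Cspg4 and Sox10 was not tested.

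Set against each other, the E19.5 knockouts, which also differ in sex pattern, differed in Bcas1. Bcas1 had 2.48 and 1.75 FPKM in E19.5 KO7, against 8.31 and 7.84 FPKM in E19.5 KO2 (log2 change -1.55 ± 0.23, adjusted p = 0.00396, limma), and fell to 0.262 of the KO2 mean. This was 1 of the 10 genes, where 5.63% of all tested genes passed (3.23% higher and 2.4% lower). Here the call was kept without either library of KO2 or KO7. All 10 log2 changes were below 0, with a median of -0.46, against 0.01 over all tested genes. At an unadjusted p under 0.05, 6 of the 10 passed, beside 22.3% of all tested genes.

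Sox10 had 5.45 and 3.89 FPKM in E19.5 KO7, against 9.38 and 9.996 FPKM in E19.5 KO2, and lay just outside the threshold (log2 change -0.93 ± 0.26, adjusted p = 0.0609, limma). Gpr17 had 6.69 and 5.23 FPKM in KO7, against 15.1 and 9.44 FPKM in KO2 (log2 change -0.90 ± 0.37, adjusted p = 0.180, limma). Myrf had 0.340 and 0.384 FPKM in KO7, against 1.52 and 1.03 FPKM in KO2 (log2 change -0.73 ± 0.25, adjusted p = 0.110, limma). In these genes, as in Enpp6, Cspg4, Olig2 and Nkx2-2, both KO7 libraries lay below both KO2 libraries, so that 8 of the 10 genes had no overlap, beside 58.1% of all tested genes. In a fit of the E19.5 libraries alone, 5 of the 10 passed as lower: Bcas1, Sox10 (adjusted p = 0.0168), Gpr17 (0.0490), Myrf (0.0320) and Enpp6 (0.0411, limma). The 5.63% of all tested genes given above belongs to the fit of all 14 libraries. It cannot be set against this count. The share of all tested genes in the fit of the E19.5 libraries alone is not given here. The 5 of 10 therefore cannot be read as particular to these genes.

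In adult KO2 brains 0 of the 10 genes passed against wild-type set 1 (limma), and 0 had an unadjusted p under 0.05, where 0.154% of all tested genes passed (0.105% higher and 0.0489% lower) and 7.34% had such an unadjusted p. The log2 changes lay between -0.44 for Gpr17 and 0.04 for Myrf, with a median of -0.27, against 0.04 over all tested genes. Gpr17 had 12.999 and 13.9 FPKM in adult KO2, against 17.9 and 19.4 FPKM in set 1 (95% interval -1.26 to 0.37, adjusted p = 0.875, limma). Bcas1, the gene that differed at E19.5, had 41.1 and 60.1 FPKM in adult KO2, against 46.7 and 63.7 FPKM in set 1 (95% interval -0.64 to 0.37). Pdgfra had 11.8 FPKM in both adult KO2 libraries, against 13.1 FPKM in both set 1 libraries (95% interval -0.60 to 0.33), and Cspg4 had 3.74 and 4.05 FPKM, against 5.11 and 4.99 FPKM in set 1 (95% interval -0.61 to 0.00). Enpp6 had 1.95 and 2.50 FPKM, against 2.93 and 3.27 FPKM in set 1 (95% interval -0.73 to 0.03). Libraries overlap for Olig1, Olig2, Nkx2-2, Sox10, Bcas1 and Myrf, and do not in the other 4 genes, beside 46.3% of all tested genes without overlap. With both wild-type sets as 1 group, the log2 changes of Pdgfra (0.15), Cspg4 (0.04), Olig1 (0.07), Olig2 (0.03), Nkx2-2 (0.04) and Gpr17 (0.24) turned above 0, so their direction depends on which wild-type libraries are used.

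In adult KO3 brains 0 of the 10 genes passed against wild-type set 2 (limma), where 22.1% of all tested genes did (13.9% higher and 8.2% lower). In a fit of the adult libraries alone 0 of all tested genes passed, so the 22.1% depends on which libraries are in the fit. Of the 10, 3 had an unadjusted p under 0.05, beside 39.4% of all tested genes. Olig2 was nearest to the threshold, with 14.3 and 17.2 FPKM in KO3, against 10.6 and 11.01 FPKM in set 2 (log2 change 0.50 ± 0.17, adjusted p = 0.0578, limma). Olig1 had 61.8 and 85.0 FPKM in KO3, against 55.6 and 49.4 FPKM in set 2 (log2 change 0.46 ± 0.21, adjusted p = 0.123, limma). Bcas1 had 72.6 and 58.6 FPKM in KO3, against 53.0 and 40.4 FPKM in set 2 (log2 change 0.49 ± 0.23, adjusted p = 0.139, limma). For these 3 genes both KO3 libraries were above both set 2 libraries, and in Cspg4 and Myrf both were below. Together these are 5 of the 10 genes, beside 55.3% of all tested genes without overlap.

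Cspg4, Pdgfra and Gpr17 had values the other way. Cspg4 had 1.92 and 2.09 FPKM in adult KO3, against 3.10 and 2.46 FPKM in set 2 (log2 change -0.33 ± 0.14, adjusted p = 0.104, limma). Pdgfra had 8.21 and 4.21 FPKM in KO3, against 9.14 and 7.84 FPKM in set 2 (log2 change -0.45 ± 0.21, adjusted p = 0.137, limma). Gpr17 had 7.59 and 2.11 FPKM in KO3, against 7.27 and 5.97 FPKM in set 2 (log2 change -0.56 ± 0.37, adjusted p = 0.288, limma). KO3 replicate 2 holds the low value in both Pdgfra and Gpr17, as it does in Sox10 (8.43, against 14.8 in replicate 1), Enpp6 (1.32, against 2.21) and Myrf (6.84, against 9.74). Nkx2-2 had 2.39 and 2.00 FPKM in KO3, against 1.75 and 2.42 FPKM in set 2, and overlaps. Without KO3 replicate 2 the log2 change of Gpr17 was 0.18. Without KO3 replicate 1 it was -1.29 for Gpr17, -0.86 for Pdgfra, -0.79 for Sox10, 0.69 for Olig1 and 0.63 for Olig2. The sizes, and for Gpr17 the direction, rest on which KO3 library is used.

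The adult wild-type sets differed from each other. In set 2, 4 of the 10 genes were lower than in set 1 and 0 were higher, where 20.9% of all tested genes passed (6.84% higher and 14% lower). Gpr17 had 7.27 and 5.97 FPKM in set 2, against 17.9 and 19.4 FPKM in set 1 (log2 change -1.37 ± 0.37, adjusted p = 0.0243, limma). Cspg4 had 3.10 and 2.46 FPKM in set 2, against 5.11 and 4.99 FPKM in set 1 (log2 change -0.68 ± 0.14, adjusted p = 0.00652, limma). Olig2 had 10.6 and 11.01 FPKM in set 2, against 17.4 and 20.7 FPKM in set 1 (log2 change -0.76 ± 0.17, adjusted p = 0.0111, limma). Olig1 had 55.6 and 49.4 FPKM in set 2, against 78.7 and 94.3 FPKM in set 1 (log2 change -0.71 ± 0.21, adjusted p = 0.0336, limma).

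All 10 log2 changes between the sets were below 0, with a median of -0.53, against -0.06 over all tested genes, and the late genes Myrf (-0.03), Bcas1 (-0.23) and Enpp6 (-0.38) did not pass. At an unadjusted p under 0.05, 7 of the 10 passed, beside 36.4% of all tested genes, and 8 of the 10 had no overlap, beside 66.6%. Pdgfra had 9.14 and 7.84 FPKM in set 2, against 13.1 FPKM in both set 1 libraries (log2 change -0.57 ± 0.21, adjusted p = 0.0747, limma). Without set 2 replicate 2, 0 of the 10 passed, and without set 2 replicate 1, or without set 1 replicate 2, 1 did, and without set 1 replicate 1, 2 did. Fibroblast markers summed to 38.4 to 41.9 FPKM in set 2 and 48.4 to 59.1 FPKM in set 1, with 4 of 9 lower. Their median log2 change was -0.10, and Col3a1 is listed at 0 in both set 2 libraries, where a 0 may be a removed low value. Microglial markers summed to 64.4 to 86.2 FPKM in set 2 and 128 to 155 FPKM in set 1, with 3 of 6 lower. Over all tested genes 14% were lower. The part of these markers in the result was not tested. The difference between wild-type sets in Gpr17, 0.355 as a ratio of means, is larger than any difference of Gpr17 between a knockout and its wild type, where the ratio of means lay between 0.721 and 2.07.

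The order of mean levels over the 7 groups differed between genes. Pdgfra was lowest in adult KO3, at 6.21 FPKM, and highest in E19.5 KO2, at 15.6 FPKM. Cspg4 was lowest in adult KO3, at 2.002 FPKM, and highest in E19.5 KO2, at 7.15 FPKM. In both genes the E19.5 groups lay at the top and adult KO3 and set 2 at the bottom, and E19.5 KO7 and adult set 1 overlapped in Cspg4. Gpr17 was lowest in adult KO3, at 4.85 FPKM, and highest in adult set 1, at 18.6 FPKM. Its 4 lowest groups, adult set 2, E19.5 KO7, E19.5 wild type and adult KO3, overlapped as neighbours. Olig1 had the highest level of the 10 genes in all 7 groups, between 52.5 and 86.5 FPKM, and neighbours in its order overlapped throughout. Bcas1 was number 2 of the 10 in every adult group, number 6 in E19.5 KO2 and number 8 in E19.5 KO7 and E19.5 wild type. Across the 14 libraries Pearson's r of log2(FPKM + 1) was 0.977 between Myrf and Enpp6 and 0.901 between Pdgfra and Cspg4, which describes libraries that share stage and handling.

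Genes that act with these 10 were taken as lists. Of all tested genes, 0.88% were higher and 0.398% lower in E19.5 KO2 than in wild type, and 3.02% and 1.43% in E19.5 KO7. In KO7 against KO2, 3.23% were higher and 2.4% lower, and in adult set 1 against E19.5 wild type 21.9% and 34.1%. Each list count below is to be read beside the share of its comparison. Of the 16 myelin genes, the products that mature oligodendrocytes wrap around axons, 16 were higher in adult wild-type set 1 than in E19.5 wild type, with a median log2 change of 4.01. In E19.5 KO2, 3 of 16 were higher than in wild type, among them Mbp (42.1 to 89.3 FPKM in KO2, 10.9 to 13.9 FPKM in wild type, adjusted p = 0.00952) and Mal (1.86 to 3.92 FPKM in KO2, 0.493 to 0.759 FPKM in wild type, adjusted p = 0.0462, both limma). The 89.3 FPKM of Mbp belong to KO2 replicate 1, one of the libraries that stand apart. The count of myelin genes was 0 without the 3 libraries that stand apart, and 0 to 4 leaving out 1 library. In E19.5 KO7 only the tight-junction gene Cldn11, which fibroblasts of the meninges also make, passed against wild type (27.9 to 28.9 FPKM in KO7, 6.59 to 7.84 FPKM in wild type, adjusted p = 0.00205, limma). Against E19.5 KO2, E19.5 KO7 had 5 myelin genes lower and 1 higher (1 to 6 lower leaving out 1 library).

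Of 16 newly formed oligodendrocyte genes 1 was higher in E19.5 KO2 than in wild type, the adaptor gene Lims2 (4.77 to 4.92 FPKM in KO2, 1.72 to 2.31 FPKM in wild type, adjusted p = 0.0187, limma). That count was 0 to 1 leaving out 1 library and 0 without the 3 libraries that stand apart. Of 19 tested other precursor genes 0 passed in E19.5 KO2 (0 by limma, 5 at an unadjusted p under 0.05), and the sialidase Neu4 was nearest (0.489 to 1.01 FPKM in KO2, 0.0314 to 0.0900 FPKM in wild type, adjusted p = 0.0539). In E19.5 KO7 the cadherin Pcdh15 was lower (2.198 to 3.59 FPKM in KO7, 4.99 to 6.38 FPKM in wild type, adjusted p = 0.0414, limma), a count of 0 to 1 leaving out 1 library. Between the stages in wild type 6 of the 19 were higher and 6 lower in adults, beside 21.9% higher and 34.1% lower of all tested genes. The proteoglycans Vcan (log2 change -2.40) and Ncan (-1.48) fell, and Neu4 (1.92) rose (limma).

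Of 18 mitogens, morphogens and receptors, 0 passed in E19.5 KO2 (5 at an unadjusted p under 0.05), the receptor Fgfr3 being nearest at 22.7 to 24.9 FPKM in KO2 and 12.6 to 14.3 FPKM in wild type (adjusted p = 0.0524, limma). In E19.5 KO7, 3 passed as higher: the chemokine Cxcl12 (28.6 to 34.4 FPKM in KO7, 11.7 to 13.8 FPKM in wild type, adjusted p = 0.00828), its receptor Cxcr4 (17.1 to 17.7 FPKM in KO7, 5.20 to 6.18 FPKM in wild type, adjusted p = 0.00533) and Fgfr1 (24.0 to 25.9 FPKM in KO7, 16.5 to 18.7 FPKM in wild type, adjusted p = 0.0385, all limma). Leaving out 1 library gave 0 to 3 of them. In adult KO3, 1 was higher and 4 were lower than in set 2, beside 13.9% higher and 8.2% lower of all tested genes. Leaving out 1 library gave 0 to 1 higher and 0 to 6 lower, and leaving out the 3 libraries gave 0 both ways. The neuregulin receptor Erbb4 was lower (1.75 to 3.46 FPKM in KO3, 6.91 to 7.11 FPKM in set 2, adjusted p = 0.0120, limma).

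Of 18 tested other transcription factors, 1 was lower in E19.5 KO2 than in wild type, Sox11, a factor of immature neurons and precursors (50.9 to 53.4 FPKM in KO2, 76.1 to 99.7 FPKM in wild type, adjusted p = 0.0259, limma). That count was 0 to 2 leaving out 1 library and 0 without the 3 libraries that stand apart. The Sox11 stage difference in wild type was the largest of the list, at a log2 change of -4.04 ± 0.13. In adults 14 of the 18 were lower and 3 higher, beside 34.1% lower and 21.9% higher of all tested genes. Of 15 tested inhibitors of differentiation, 0 passed in E19.5 KO2 (2 at an unadjusted p under 0.05, limma). In E19.5 KO7 Bmp4, which also stands in the newly formed list, was higher (2.785 to 2.995 FPKM in KO7, 0.760 to 1.59 FPKM in wild type, adjusted p = 0.0462, limma), a count of 0 to 1 leaving out 1 library. In adult KO2, 0 genes of any of these lists passed against set 1 (limma).

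Astrocyte markers summed to 488 to 525 FPKM in E19.5 KO2, 264 to 362 FPKM in E19.5 KO7 and 233 to 279 FPKM in E19.5 wild type. Of the 8, all had log2 changes above 0 in E19.5 KO2 with a median of 0.72, and 1 passed, the glycolytic enzyme gene Aldoc (212 to 222 FPKM in KO2, 65.6 to 79.4 FPKM in wild type, adjusted p = 0.00952, limma). Leaving out 1 library gave 0 to 4 of them, and leaving out the 3 libraries that stand apart gave 0. The myelin genes summed to 119 to 208 FPKM in E19.5 KO2 and 54.5 to 64.5 FPKM in E19.5 wild type. The part of either in the level of Bcas1 was not tested.

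**Figure D4:**
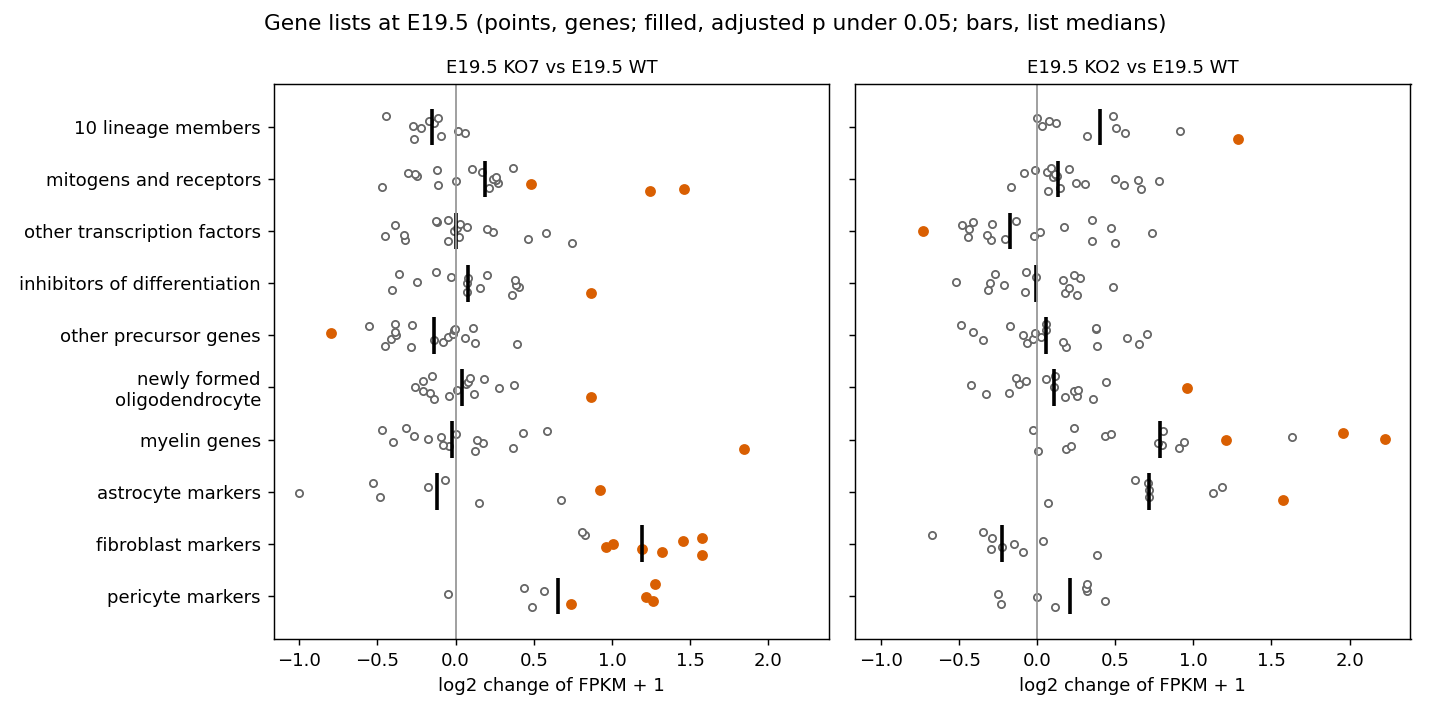
Log2 change of FPKM + 1 against E19.5 wild type for each gene (points) of the lineage lists and of markers of other cells, in E19.5 KO7 and E19.5 KO2; filled points passed an adjusted p of 0.05 and black bars are list medians. In KO7 the fibroblast markers lie to the right (median 1.19) while the 10 lineage genes lie near 0 (-0.15); in KO2 the myelin genes (median 0.79) and astrocyte markers (0.72) lie to the right with the 10 lineage genes (0.40).

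Outside the 10, the tested genes whose pattern over the 14 libraries was most like the mean of the 10, each scaled to equal spread, were D630003M21Rik (Pearson's r = 0.955), Tril (0.950), 9630013A20Rik (0.917), Has1 (0.914) and Wscd1 (0.912). 9630013A20Rik is listed at 0 in both libraries of adult KO3 and of wild-type set 2, where a 0 may be a removed low value. The r values describe likeness over libraries that share stage and handling, and carry no test.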

How the data were processed

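The deposited table held FPKM values, as the authors deposited them, in 1 column for each of 14 brain poly(A) RNA libraries. The 2 entries without a gene name were left out. RNA was extracted with TRIzol and poly(A) RNA purified in repeated rounds, per the labels' protocols. Per the submitters' processing notes, Cufflinks 2.2.1, TopHat2 2.1.1, CASAVA and build mm9 were used, with no role stated. No source used here gives the annotation, filters, scaling or strand setting. A header word calls 10 of the 14 columns FPKM, and the other 4 (adult KO3 and wild-type set 2) were taken to be the same unit. A value of 0 in those 4 may be a removed low value.

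The 14322 genes that reached 1 FPKM in 2 or more libraries were fitted as log2(FPKM + 1), with a mean for each group over all 14 libraries, in limma 3.58.1 (R 4.3.3; trended variance, 2-sided tests, 7 residual degrees of freedom). P-values were Benjamini-Hochberg adjusted over all these genes, with a threshold of 0.05. The procedure was tested on simulated data with normal noise. Of genes given a log2 change of 0.5, 11.3% to 19.3% were recovered, depending on the comparison. Of those given a change of 1, 67.7% to 74% were. Most changes of 0.5 would thus be missed. The 10 genes, the lists and the pairing of each adult knockout with its own wild-type set were chosen with earlier results of these data known. All 10 genes are named, and from each list up to 3 with the smallest p, of which 1 is not reported here. Alternatives were the pseudocount, filter, scaling, libraries in the fit, adult wild type as 1 group, variance trend, replicate block, each library left out and, added after seeing the data, 3 libraries left out.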

Additional observations from a re-analysis of the deposited data

How the results depend on the processing

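Of 2222 values of single genes under the alternatives, 2100 kept direction and side of the threshold, 31 lost a call, 45 gained one and 46 changed sign. With a pseudocount of 0.1 the number of the 10 genes called was 2 in E19.5 KO2 and 3 in E19.5 KO7 against E19.5 KO2. With a pseudocount of 10 both were 0, with Bcas1 at 0.50 (adjusted p = 0.165, limma) and -0.58 (0.0662). A filter at 5 FPKM gave 1 in adult KO3. Quantile and median-of-ratios scaling each gave 2 in KO7 against KO2, and the E19.5 libraries alone gave 5. The adult libraries alone gave 1 between the wild-type sets. The 10 libraries other than adult KO3 and set 2 gave 2 in E19.5 KO2 and 4 in KO7 against KO2. Adult wild type as 1 group gave 1 in adult KO3. The 3 libraries left out gave 0 in E19.5 KO2. Leaving out 1 library gave 0 to 2 in E19.5 KO2, 1 to 4 in KO7 against KO2, 0 to 5 in adult KO3, 0 to 5 between the wild-type sets and 0 to 2 in the interaction. These counts stand without the share of all tested genes called in the same run. That share moved too, so the counts alone are no result about the 10 genes. The cause was not tested.

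The replicate numbers share only a number: same-number deviations correlated at -0.29 to 0.23 between groups, and the labels name no shared batch. A fit with the replicate number as a block called 1 of the 10 genes in adult KO3 (Olig2, 0.50, adjusted p = 0.0480), added Nkx2-2 as lower in adult KO2 than in E19.5 KO2 (-0.47, adjusted p = 0.0376), and called 139 genes in all in E19.5 KO2, against 183 without the block.

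Leaving out 1 library, the log2 changes that turned sign had these ranges. For KO7 against KO2 they were Pdgfra -0.239 to 0.014. For E19.5 KO2 against wild type they were Pdgfra -0.128 to 0.124, Nkx2-2 -0.061 to 0.127 and Olig1 -0.054 to 0.294. For the KO2 stages they were Gpr17 -0.154 to 0.468. For E19.5 KO7 against wild type they were Gpr17 -0.194 to 0.222, Olig1 -0.376 to 0.104 and Enpp6 -0.013 to 0.14. For adult KO2 they were Sox10 -0.519 to 0.023, Nkx2-2 -0.446 to 0.078, Bcas1 -0.399 to 0.136 and Myrf -0.227 to 0.297. For the wild-type stages they were Nkx2-2 -0.514 to 0.01. For the wild-type sets they were Myrf -0.291 to 0.233. For the interaction they were Nkx2-2 -0.479 to 0.045. For adult KO3 they were Nkx2-2 -0.1 to 0.211, Gpr17 -1.288 to 0.177 and Enpp6 -0.437 to 0.031. With quantile scaling, sign turned for Pdgfra at 0.034 and Nkx2-2 at -0.003 in E19.5 KO2 against wild type, and Myrf at -0.028 in adult KO2. With median-of-ratios scaling, sign turned for Pdgfra at 0.011 in E19.5 KO2 against wild type, and Myrf at -0.019 in adult KO2, and Cspg4 at 0.028 in the wild-type stages. With adult wild type as 1 group, sign turned for Pdgfra at 0.148, Cspg4 at 0.036, Olig1 at 0.066, Olig2 at 0.03, Nkx2-2 at 0.038 and Gpr17 at 0.242 in adult KO2, and Nkx2-2 at -0.167 in adult KO3, and Olig2 at -0.258 in the wild-type stages, and Pdgfra at 0.15 and Nkx2-2 at 0.005 in the interaction. With 3 libraries left out, sign turned for Pdgfra at 0.014 in KO7 against KO2, and Gpr17 at 0.054 in adult KO3, and Myrf at 0.183 in the wild-type sets.

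Scaling moved the median over all genes between wild-type stages, -0.15, to -0.07 (quantile) and -0.03 (median-of-ratios). Counts over all genes called were 183 in E19.5 KO2 (6 without wild-type replicate 1, 591 in the fit of 10 libraries), 637 in E19.5 KO7 (49 without wild-type replicate 1, 1696 in the fit of 10), 806 in KO7 against KO2 (191 without KO7 replicate 1, 1821 in the fit of 10), 22 in adult KO2 (3 without set 1 replicate 1, 65 with no filter), 3164 in adult KO3 (0 with adult libraries alone, 6780 without KO3 replicate 1), 2990 between the sets (1313 without set 1 replicate 1, 4779 without KO3 replicate 1) and 9 in the interaction (2 without E19.5 wild-type replicate 1, 288 in the fit of 10). The stage counts moved least, from 8020 to 6229 and 9154 in wild type. Scaling moved the split of higher and lower calls: with quantile scaling it was 1631 and 1470 between the sets (980 and 2010 before), 1609 and 1808 in adult KO3 (1990 and 1174) and 176 and 120 in E19.5 KO2 (126 and 57); with median-of-ratios scaling it was 451 and 462 in KO7 against KO2 (462 and 344) and 3854 and 4054 between wild-type stages (3135 and 4885). Depth is unknown, so no counting error could be given.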

Other observations

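Olig1 and Olig2 lie on the same chromosome with no protein-coding gene starting between them in the RefSeq gene table. Their ratio of FPKM, Olig1 over Olig2, was 4.32 to 5.25 in the 8 adult libraries and 2.95 to 3.74 in the 6 E19.5 libraries, so the stages do not overlap in this ratio, in knockout and wild type alike. The ratio was looked at after the values were seen and carries no test.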
